A study of Mus musculus with 15 samples.

Results

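The interleukin-6 family was followed in mouse colon through 10 genes, taken by their symbols from the table of gene counts. They were the cytokine genes *Il6*, *Il11*, *Lif* and *Osm*, the receptor genes *Osmr*, *Il6ra*, *Il11ra1* and *Il6st*, the transcription factor gene *Stat3* and its feedback inhibitor *Socs3*. All 10 were among the 32544 gene symbols of the count table, and all 10 passed the expression filter that left 17477 genes for testing. *Il6* and *Osm* passed it only through the DSS libraries of 2 genotypes, wild type and the knock-in described below. Their counts in all other libraries were low, which limits the tests of these 2 genes within the knockout. The study compared 3 genotypes of *Tert*, the gene of the telomerase reverse transcriptase. They were wild type (WT, *Tert*+/+), a knock-in that the series design describes as lacking enzyme activity (VAA) and a knockout (KO, *Tert*-/-). Mice were 8 to 12 weeks old. Each genotype had 2 untreated libraries and 3 from mice given dextran sulfate sodium (DSS), which damages the lining of the colon, at 3% in drinking water for 4 days and then plain water for 4 days. Colon was taken on day 8 and read as whole tissue, so fewer cells of a type and less RNA per cell cannot be told apart. The labels name no strain, do not say which part of *Tert* is deleted in KO mice and do not say whether animals were pooled.

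Interleukin-6, interleukin-11, leukemia inhibitory factor and oncostatin M are secreted proteins. Each acts through its own receptor chain together with gp130, the shared signalling chain encoded by *Il6st*. Gp130 activates Janus kinases, which phosphorylate STAT3, and STAT3 enters the nucleus and switches on target genes. *Socs3* is one of these targets, and its product binds gp130 and Janus kinases and shuts the signal down. In injured gut, interleukin-6 and interleukin-11 are known for epithelial survival and regrowth, interleukin-11 and leukemia inhibitory factor as products of stromal cells, and oncostatin M as a product of leukocytes that acts on stromal cells carrying its receptor.

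Library totals ran from 10.56 to 17.54 M counts. *Tert* held 0 or 1 count in each of the 5 KO libraries, 23 to 40 in WT and 7 to 29 in VAA, so no library went against its label as KO or not KO. The WT and VAA ranges overlapped, so *Tert* counts could not check these labels against each other. *Ddx3y*, a Y-linked gene, held 914 and 868 counts in WT untreated replicate 2 and KO untreated replicate 2 against 5 to 20 in every other library, so these 2 libraries were from males and no DSS library was. VAA DSS replicate 3 was the shallowest library. It also had the highest summed level of fibroblast, endothelial and enteric glial markers of the DSS libraries, at 3330, 166 and 56.7 CPM (a gene's share of the scaled library total). Results on the 10 genes that rest on it are given with and without it, except the distances in pattern, which were computed only with it. Colon epithelial markers summed to between 9600 and 17300 CPM in the libraries, and no epithelial marker was at 0 in any group. The labels do not say that replicates were separate animals, so *P* values measure the spread between these libraries.

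DSS raised the family's cytokine genes and *Socs3* in WT and VAA colon. Of the 10 genes, 6 were higher and 1 lower in WT DSS than in WT untreated colon, against 14.1% and 12.5% of all genes tested. In VAA 7 were higher and 0 lower, against backgrounds of 10.9% and 9.54%. In KO 2 were higher (*Socs3* and, on few counts, *Osm*) and 1 lower, against 5.59% and 5.06%. The median log2 fold change of the 10 genes was 1.55 in WT, 1.84 in VAA and 0.40 in KO, where the medians of all genes tested were -0.012, 0.057 and 0.003. Averaged over the genotypes, DSS called 7 of the 10 higher and 1 lower, against 22.5% and 20% of all genes.

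**Figure D1:**
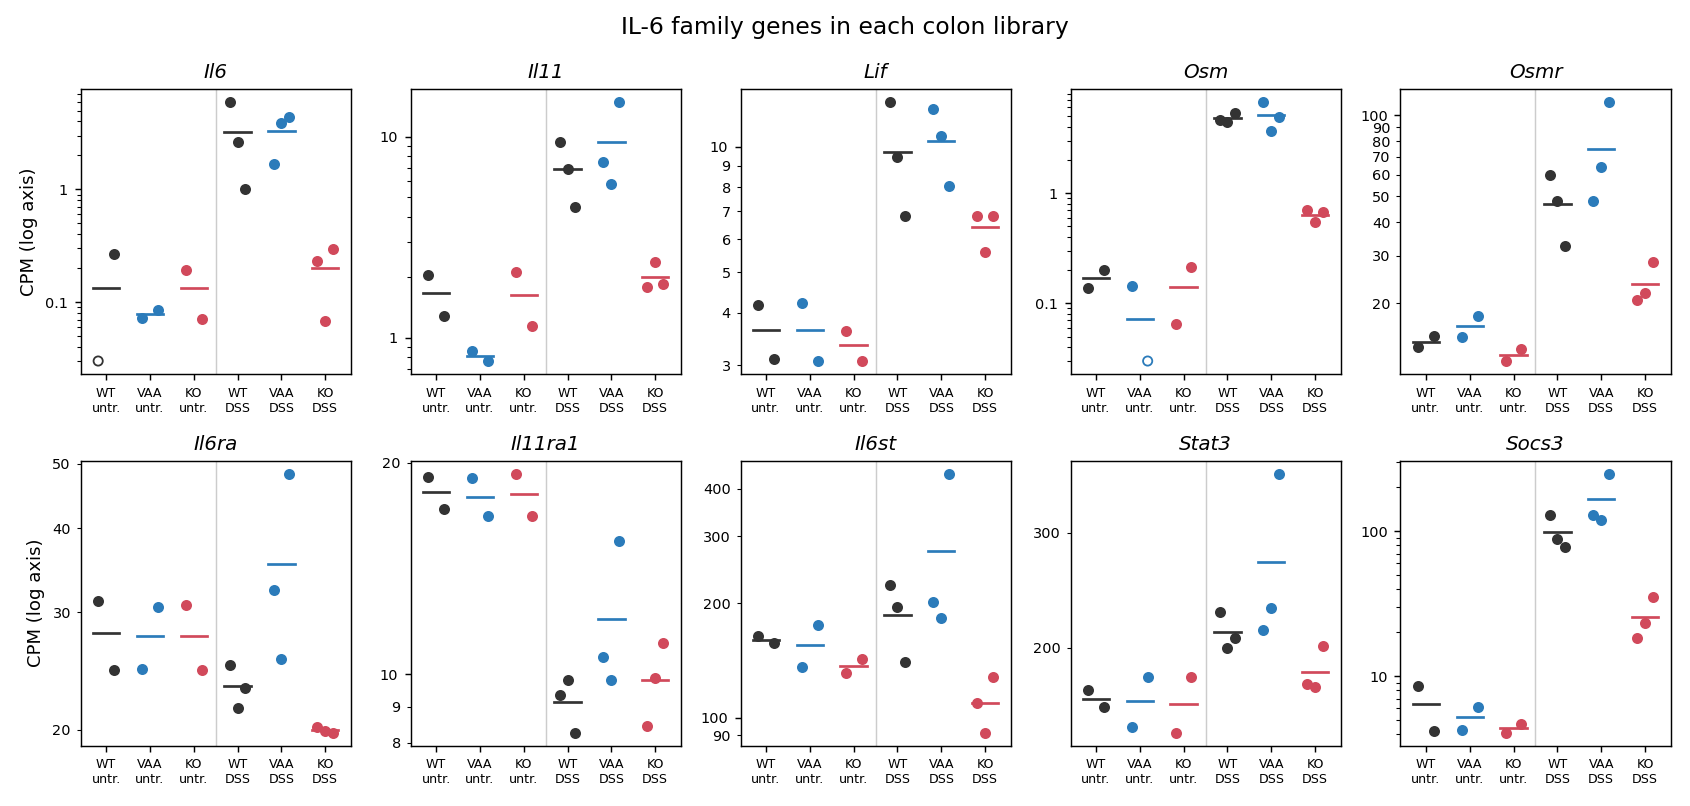
Level of each of the 10 genes in each of the 15 libraries, in CPM scaled by trimmed mean factors, on a log axis, by genotype and treatment (untr., untreated). Points are libraries, bars are group means, and the 2 open circles stand for 0 counts and are drawn at an arbitrary low level. The KO DSS libraries lay below every WT and VAA DSS library for all genes but *Il11ra1* and *Stat3*, very narrowly so for *Lif*.

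*Il6*, the founding cytokine of the family, was close to absent in untreated colon. It held 0 and 4 counts in the WT untreated libraries, 1 and 1 in VAA and 3 and 1 in KO. Under DSS it held 82, 34 and 17 counts in WT and 28, 67 and 46 in VAA, but 3, 1 and 4 in KO. In counts the KO DSS libraries therefore lay in the range of untreated colon, and the WT and VAA DSS libraries all lay above it. *Il6* rose by 4.46 ± 0.99 log2 units (SE) in WT (adjusted *P* = 0.0056, from the edgeR quasi-likelihood fit and adjusted by Benjamini-Hochberg over 17477 genes, as are all adjusted *P* that follow). In VAA the counts were 141 against 2, a ratio of 40.9 (exact 95% counting interval 11.1 to 341, adjusted *P* = 0.0043). In KO they were 8 against 4, a ratio of 1.44 (0.385 to 6.52, adjusted *P* = 0.84). The WT call on *Il6* was lost without WT untreated replicate 1 (3.50, adjusted *P* = 0.064) and the VAA call without VAA untreated replicate 1 (adjusted *P* = 0.059). Without WT untreated replicate 2 the untreated WT library left held 0 counts, and the fitted 8.5 (adjusted *P* = 0.016) depends on the prior count.

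*Osm*, the oncostatin M gene, was also near 0 without DSS. Its counts were 2 and 3 in WT untreated, 2 and 0 in VAA untreated, and 1 and 3 in KO untreated libraries. Under DSS they were 63, 58 and 91 in WT, 112, 64 and 51 in VAA, and 9, 8 and 9 in KO. KO colon thus held more *Osm* under DSS than untreated in every library, yet each KO DSS library was below every WT and VAA DSS library. *Osm* rose by 4.76 ± 0.54 in WT (adjusted *P* = 7.3e-05). In VAA the ratio was 65.9 (18 to 547, adjusted *P* = 3.2e-05), and in KO the log2 fold change was 2.15 ± 0.62 (adjusted *P* = 0.043). The KO call on *Osm* was lost without any 1 of 10 libraries (each WT and each KO library), with log2 fold changes of 1.53 to 3.14 and adjusted *P* of 0.057 to 0.29. It was also lost with DESeq2 (2.21, adjusted *P* = 0.060), and without VAA untreated replicate 1 the VAA fold has an untreated library of 0 counts beneath it (fitted 9.19).

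*Il11*, a cytokine of activated stromal cells, was measured at 2.05 and 1.28 CPM in WT untreated, 0.859 and 0.767 in VAA untreated and 2.13 and 1.14 in KO untreated colon. Under DSS it reached 9.41, 6.90 and 4.48 CPM in WT and 7.46, 5.84 and 14.9 in VAA, the highest being VAA replicate 3. The KO DSS libraries held 1.78, 2.39 and 1.86 CPM and overlapped the untreated KO range. *Il11* rose by 2.05 ± 0.46 in WT (adjusted *P* = 0.0063) and by 3.50 ± 0.52 in VAA (adjusted *P* = 0.00041), and its log2 fold change in KO was 0.29 ± 0.47 (adjusted *P* = 0.74). The VAA rise of *Il11* was 3.01 ± 0.43 without VAA DSS replicate 3. The WT call was lost without WT untreated replicate 2 (1.75, adjusted *P* = 0.077).

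*Lif*, the leukemia inhibitory factor gene, had the smallest rise of the 4 cytokine genes in WT and VAA. It lay between 3.07 and 4.22 CPM in the 6 untreated libraries. DSS libraries held 12.8, 9.43 and 6.84 CPM in WT, 12.3, 10.6 and 8.07 in VAA, and 6.82, 5.59 and 6.84 in KO. Every DSS library was above every untreated one, KO included. *Lif* rose by 1.41 ± 0.30 in WT (adjusted *P* = 0.0043) and by 1.5 ± 0.30 in VAA (adjusted *P* = 0.0033), and its KO log2 fold change of 0.94 ± 0.30 did not pass (adjusted *P* = 0.062). In KO it passed with DESeq2 (0.93, adjusted *P* = 0.033), in a fit of the KO groups alone (0.91, 0.035) and without WT DSS replicate 3 or VAA DSS replicate 3 (both 0.94, 0.049 and 0.028). The WT call on *Lif* was lost without WT untreated replicate 2 (1.21, adjusted *P* = 0.061) and the VAA call without VAA untreated replicate 2 (1.29, 0.051).

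*Lif* and *Osm* are neighbours on the plus strand of chromosome 11 (mm10, 4257557 to 4272514 and 4236420 to 4241026). *Il6* lies on chromosome 5 (30013114 to 30019981, plus strand) and *Il11* on chromosome 7 (4772373 to 4782859, minus strand). The bases upstream of the RefSeq starts of the 10 genes (GRCm38.p6, the mm10 assembly) were searched for an AP-1 and a STAT motif. The AP-1 motif was TGACTCA on both strands. The STAT motif was TTCNNNGAA, whose pattern reads the same on both strands. RefSeq windows of 250 bases were found for 9 of the 10 genes, *Osm* being the one left out, with 2 starts for each of *Il11* and *Il11ra1*, and all 250 bases of each window were searched. The AP-1 motif occurred in windows of 3 genes, *Il6*, *Il11* (at 1 of its 2 starts) and *Lif*, with 11 windows searched. Over all mouse windows it occurred in 4.46% of 32851. The STAT motif occurred in that of 1 gene, *Socs3*, and in 7.02% of all windows. The windows with a match are shown 5′ to 3′, each ending at the start site or before the first exon that GENCODE M21 places there, with the matched letters in capitals. The windows shown for *Il11* and *Socs3* lie inside the span that GENCODE M21 gives the gene (117966079 to 117970047 for *Socs3*). A match describes the letters and is not evidence of binding.
*Il6* (chr5:30012864-30013113, plus strand): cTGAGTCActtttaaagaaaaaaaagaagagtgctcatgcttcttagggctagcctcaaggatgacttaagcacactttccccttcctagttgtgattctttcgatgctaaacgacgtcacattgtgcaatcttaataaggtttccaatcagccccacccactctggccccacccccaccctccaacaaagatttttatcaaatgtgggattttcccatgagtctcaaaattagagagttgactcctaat
*Il11* (chr7:4778142-4778391, minus strand): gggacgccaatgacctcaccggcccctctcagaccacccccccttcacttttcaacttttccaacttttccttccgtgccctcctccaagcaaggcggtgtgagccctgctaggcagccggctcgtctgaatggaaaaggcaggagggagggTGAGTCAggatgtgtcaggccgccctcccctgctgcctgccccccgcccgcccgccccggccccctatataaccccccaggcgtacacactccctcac
*Lif* (chr11:4257318-4257556, plus strand): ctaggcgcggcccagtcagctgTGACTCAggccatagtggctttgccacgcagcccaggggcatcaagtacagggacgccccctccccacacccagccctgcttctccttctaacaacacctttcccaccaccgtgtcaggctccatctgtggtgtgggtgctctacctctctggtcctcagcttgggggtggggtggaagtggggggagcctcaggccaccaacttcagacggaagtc
*Socs3* (chr11:117969452-117969616, minus strand): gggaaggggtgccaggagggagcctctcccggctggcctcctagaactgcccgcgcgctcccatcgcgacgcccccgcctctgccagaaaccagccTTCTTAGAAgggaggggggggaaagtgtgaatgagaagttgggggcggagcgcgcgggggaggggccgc

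The receptor genes moved in both directions, *Osmr* up and *Il11ra1* down. *Osmr*, the receptor chain that pairs with gp130 to bind oncostatin M, stood at 13.7 and 15.1 CPM in WT untreated, 15 and 18 in VAA untreated and 12.2 and 13.5 in KO untreated colon. Under DSS it reached 59.7, 47.8 and 32.7 CPM in WT, 47.9, 64.1 and 112 in VAA and 20.6, 21.8 and 28.5 in KO. All 9 DSS libraries exceeded all 6 untreated ones, with KO lowest of the 3 DSS groups. *Osmr* rose by 1.69 ± 0.33 in WT (adjusted *P* = 0.0027) and 2.18 ± 0.34 in VAA (adjusted *P* = 0.00056), and its KO log2 fold change was 0.88 ± 0.33 (adjusted *P* = 0.10). Without VAA DSS replicate 3, which held the highest *Osmr* level, the VAA value was 1.76 ± 0.25 and the KO value of 0.89 passed (adjusted *P* = 0.017), as it did in a fit of the KO groups alone (0.86, 0.014).

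*Il11ra1*, the receptor chain for interleukin-11, had the opposite direction to its ligand in WT and VAA, while in KO no change of *Il11* was called. It lay between 16.8 and 19.3 CPM in every untreated library and fell to 9.34, 9.81 and 8.26 CPM in WT DSS, with 10.6, 9.83 and 15.5 in VAA DSS and 8.45, 9.89 and 11.1 in KO DSS. No DSS library reached the untreated range. The log2 fold change was -0.99 ± 0.20 in WT (adjusted *P* = 0.0034), -0.59 ± 0.20 in VAA (adjusted *P* = 0.055) and -0.88 ± 0.20 in KO (adjusted *P* = 0.017). The VAA value passed without VAA DSS replicate 3 (-0.81, adjusted *P* = 0.0035), with DESeq2 (-0.60, 0.031) and with limma (-0.62, 0.049), whereas the KO call was lost without KO untreated replicate 1 or 2 or KO DSS replicate 1 or 2 (-0.97 to -0.77, adjusted *P* of 0.051 to 0.14). *Il11ra2*, a close copy of *Il11ra1* on chromosome 4, held 0 to 2 counts per library, and reads that both genes share could have been divided between them.

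*Il6ra*, the interleukin-6 receptor chain, and *Il6st*, the gp130 gene, did not pass the test of DSS in any genotype when all libraries were fitted. *Il6ra* ranged from 24.6 to 31.2 CPM over the untreated libraries, and its log2 fold changes were -0.26 ± 0.22, 0.36 ± 0.22 and -0.47 ± 0.22 in WT, VAA and KO. In KO DSS the 3 libraries of *Il6ra* lay within 19.8 to 20.2 CPM, below every other library, and the KO value passed in a fit of the KO groups alone (-0.49, adjusted *P* = 0.049) and narrowly without VAA DSS replicate 3 (-0.47). *Il6st* stood at 164 and 157 CPM in WT untreated, 136 and 175 in VAA untreated and 131 and 143 in KO untreated libraries. With DSS it was 223, 195 and 140 CPM in WT, 201, 183 and 439 in VAA and 109, 91.2 and 128 in KO. The KO DSS libraries thus had the lowest *Il6st* of the series, and VAA DSS replicate 3 had by far the highest. The log2 fold changes of *Il6st* were 0.21 ± 0.32, 0.82 ± 0.32 and -0.32 ± 0.31 in WT, VAA and KO (adjusted *P* of 0.65, 0.093 and 0.55). Without VAA DSS replicate 3 the VAA value was 0.30 ± 0.20, and without VAA DSS replicate 2 it passed (1.04, adjusted *P* = 0.028).

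*Stat3* was abundant in every library and changed little. It ranged from 148 to 180 CPM in the untreated libraries, from 200 to 227 in WT DSS, from 213 to 370 in VAA DSS and from 174 to 201 in KO DSS. It rose in VAA by 0.71 ± 0.20 (adjusted *P* = 0.023) and had log2 fold changes of 0.34 ± 0.20 in WT (adjusted *P* = 0.22) and 0.16 ± 0.20 in KO (adjusted *P* = 0.65). The VAA call on *Stat3* was lost without VAA untreated replicate 1 (0.59, adjusted *P* = 0.19) or 2 (0.84, 0.063), and was 0.42 ± 0.13 (0.026) without VAA DSS replicate 3, where WT passed as well (0.35, 0.035). In fits of a genotype alone WT passed (0.33, adjusted *P* = 0.030) and VAA did not (0.71, 0.20).

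*Socs3*, the feedback inhibitor, was the gene of the 10 with the smallest *P* in the averaged DSS effect. It stood at 8.61 and 4.17 CPM in WT untreated, 4.29 and 6.13 in VAA untreated and 4.07 and 4.71 in KO untreated colon. DSS libraries held 129, 87.5 and 77.9 CPM in WT, 129, 119 and 249 in VAA and 18.3, 23.1 and 35.3 in KO. The order of group means was VAA DSS, WT DSS, KO DSS and then the untreated groups. WT and VAA overlapped, KO DSS overlapped no other group, and the untreated groups overlapped each other. *Socs3* rose by 3.94 ± 0.45 in WT (adjusted *P* = 7.7e-05), 4.99 ± 0.47 in VAA (adjusted *P* = 1.8e-05) and 2.54 ± 0.44 in KO (adjusted *P* = 0.0037). The VAA value was 4.58 ± 0.38 without VAA DSS replicate 3, and the KO call was lost without KO untreated replicate 1 (2.44, adjusted *P* = 0.060).

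Levels of different genes were compared only per length, as CPM per kilobase of the protein-coding exons of GENCODE's basic set. On that scale *Stat3* was the highest of the 10 genes in untreated WT colon at 26.8 ± 1.09 (SD, n = 2), followed by *Il6st* at 14.6 ± 0.506 and *Il11ra1* at 7.22 ± 0.538, with *Socs3* at 2.51 ± 1.23. In WT DSS colon *Socs3* came first with a level of 38.5 ± 10.7 CPM per kilobase (n = 3), next to *Stat3* at 33.9 ± 2.25, and both ranges overlapped. In KO DSS colon *Stat3* came first at 29.5 ± 2.46 CPM per kilobase, and *Socs3* reached 7.17 to 13.8. The cytokine genes stayed lower per kilobase in WT DSS colon, from 1.32 ± 1.05 for *Il6* to 3.33 ± 1.18 for *Il11*.

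**Figure D2:**
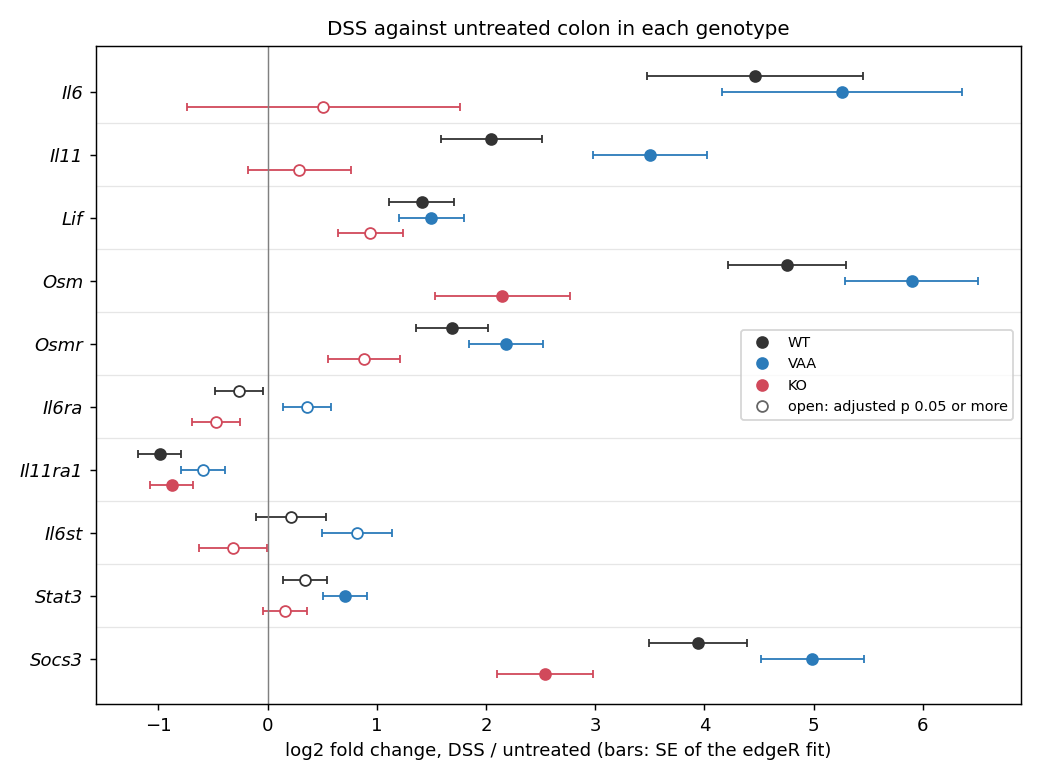
Log2 fold change of DSS against untreated colon for each gene in WT, VAA and KO, with the standard error of the edgeR fit as bars and open points where the adjusted *P* was 0.05 or more. The KO points of all genes but *Il11ra1* lie left of the WT and VAA points. Fitted values of *Il6* and *Osm* in VAA rest on 2 untreated counts each.

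The series set a *Tert* allele without enzyme activity beside a knockout, so the genotypes were compared with each other under DSS. *Il6*, *Il11*, *Osm* and *Socs3* were lower in KO than in WT DSS colon, 4 of the 10 genes against 2.46% of all genes called lower, and 0 were called higher against 3.21%. The median of the 10 log2 fold changes was -0.87, and -0.013 over all genes tested. The ranges of KO and WT did not overlap for 8 of the 10 genes, against 35.8% of all genes. *Il6* was 8 counts in KO against 133 in WT, a difference of -3.96 ± 0.80 log2 units (adjusted *P* = 0.016). *Osm* differed by -2.90 ± 0.38 (adjusted *P* = 0.0024), *Socs3* by -1.94 ± 0.34 (0.0087) and *Il11* by -1.77 ± 0.39 (0.022). The calls on *Osm* and *Socs3* stood without each library in turn. Those on *Il6* were lost without WT DSS replicate 1 or 2 or KO DSS replicate 1 or 2 (-4.08 to -3.13, adjusted *P* of 0.058 to 0.066), and those on *Il11* without WT DSS replicate 1 or 2 or any single KO DSS library (-1.92 to -1.49, 0.055 to 0.10).

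The receptor genes differed less between KO and WT DSS colon. *Osmr* had a log2 difference of -0.98 ± 0.28 (adjusted *P* = 0.057), *Il6st* of -0.76 ± 0.28 (0.13), *Il6ra* of -0.22 ± 0.20 (0.58) and *Il11ra1* of 0.10 ± 0.19 (0.80). *Lif* differed by -0.59 ± 0.25 (adjusted *P* = 0.19) and *Stat3* by -0.20 ± 0.18 (0.56). The KO values of *Osmr*, *Il6st* and *Il6ra* all lay below the WT values. *Osmr* passed with DESeq2 (-0.98, adjusted *P* = 0.015), with limma (-1.06, 0.030), with no expression filter (0.040), in a fit of KO and WT DSS alone (0.019), and without WT DSS replicate 3 (-1.19, 0.030), VAA DSS replicate 1 (-0.98, 0.035) or VAA DSS replicate 3 (-0.98, 0.0065). *Il6st* passed without VAA DSS replicate 3 (-0.76, adjusted *P* = 0.0085) and in the fit of KO and WT DSS alone (0.022).

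Against VAA, with the KO libraries shared with the previous comparison, 8 of the 10 genes were lower in KO DSS colon and 0 higher, against 9.41% and 6.01% of all genes. The median log2 difference was -1.49, and -0.010 over all genes. *Osm* differed by -2.99 ± 0.38 (adjusted *P* = 0.00077), *Socs3* by -2.69 ± 0.35 (0.00077), *Il6* by -4.01 ± 0.80 (0.0065) and *Il11* by -2.20 ± 0.40 (0.0038). *Osmr* differed by -1.66 ± 0.28 (0.0030), *Il6st* by -1.32 ± 0.29 (0.0090), *Il6ra* by -0.82 ± 0.20 (0.017) and *Stat3* by -0.56 ± 0.18 (0.048). Without VAA DSS replicate 3 these 8 differences were -3.02, -2.27, -3.76, -1.71, -1.24, -0.80, -0.53 and -0.27 in the same order, with *Stat3* no longer called (adjusted *P* = 0.17) and *Lif* called at -0.83 (0.049). The call on *Stat3* was lost without any 1 of 13 libraries (adjusted *P* of 0.056 to 0.17), that on *Il6ra* without any 1 of the 3 KO DSS libraries (0.054 to 0.058), and those on *Il6st*, *Il6ra* and *Stat3* in a fit of KO and VAA DSS alone (0.085, 0.11 and 0.20). *Stat3* was also lost with DESeq2 size factors (0.058) and with sex as a covariate (0.060).

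Markers of several cell types also differed between the groups. The 6 neutrophil markers summed to 17.3 to 31.4 CPM in untreated libraries, 212 to 271 in WT DSS, 236 to 382 in VAA DSS and 37.8 to 45.3 in KO DSS, and 5 of 6 were lower in KO than in WT DSS colon. No neutrophil marker was at 0 throughout a DSS group, and 1 of the 6 was at 0 in both libraries of WT and of KO untreated colon and 2 in VAA untreated colon. The 6 monocyte and macrophage markers summed to 153 to 222 CPM in WT DSS, 204 to 306 in VAA DSS and 100 to 152 in KO DSS, and 1 of 6 was lower in KO than in WT. The 7 fibroblast markers summed to 1100 to 1790, 1290 to 3330 and 797 to 1190 CPM in these groups, with 2 of 7 lower in KO than in WT and 7 of 7 lower in KO than in VAA. The 10 epithelial markers summed to 10600 to 12600, 9600 to 11200 and 15200 to 17100 CPM, with 3 of 10 higher in KO than in WT. The 6 smooth muscle markers all fell with DSS in WT and in VAA, and 4 of 6 did in KO. The 6 T cell markers summed to 19.1 to 25.1, 15.9 to 26.5 and 31.2 to 34 CPM, with 0 of 6 called between KO and WT. The 5 endothelial markers summed to 43.5 to 59.1, 54.5 to 166 and 36.6 to 43.3 CPM, with 0 of 5 called between KO and WT, and the 4 enteric glial markers to 10 to 15.2, 12.6 to 56.7 and 4.43 to 6.62 CPM. The 5 B cell markers summed to 46.3 to 78.8, 13.8 to 93.7 and 12.3 to 123 CPM. The 4 adipocyte markers summed to 5.98 to 64.4, 5.67 to 9.51 and 3.64 to 51.9 CPM, highest in WT DSS replicate 1 and KO DSS replicate 2. No B cell or adipocyte marker was called between KO and WT. WT DSS replicate 1 also held the highest *Il6* and *Il11* of the WT DSS libraries. The part of these shifts in the levels of the 10 genes was not tested.

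VAA and WT DSS colon were not separated by the test for any of the 10 genes, and 1 gene of the 17477 was called (0.00572%). The log2 difference was 0.06 for *Il6* (95% interval -1.24 to 1.35), 0.43 for *Il11* (-0.36 to 1.22), 0.09 for *Lif* (-0.44 to 0.63) and 0.09 for *Osm* (-0.61 to 0.78). For *Socs3* it was 0.75 (0.06 to 1.45, adjusted *P* = 0.29), for *Osmr* 0.68 (0.08 to 1.27, 0.28) and for *Il6ra* 0.60 (0.17 to 1.03, 0.28). These 3 genes had unadjusted *P* under 0.05, and 2855 genes of all tested did. Without VAA DSS replicate 3 the values of *Socs3*, *Osmr* and *Il6ra* were 0.33, 0.26 and 0.31, and *Il6ra* alone passed without VAA DSS replicate 2 (0.79, adjusted *P* = 0.042). Over all genes the count of 1 became 848 without VAA DSS replicate 2 and 37 with DESeq2.

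**Figure D3:**
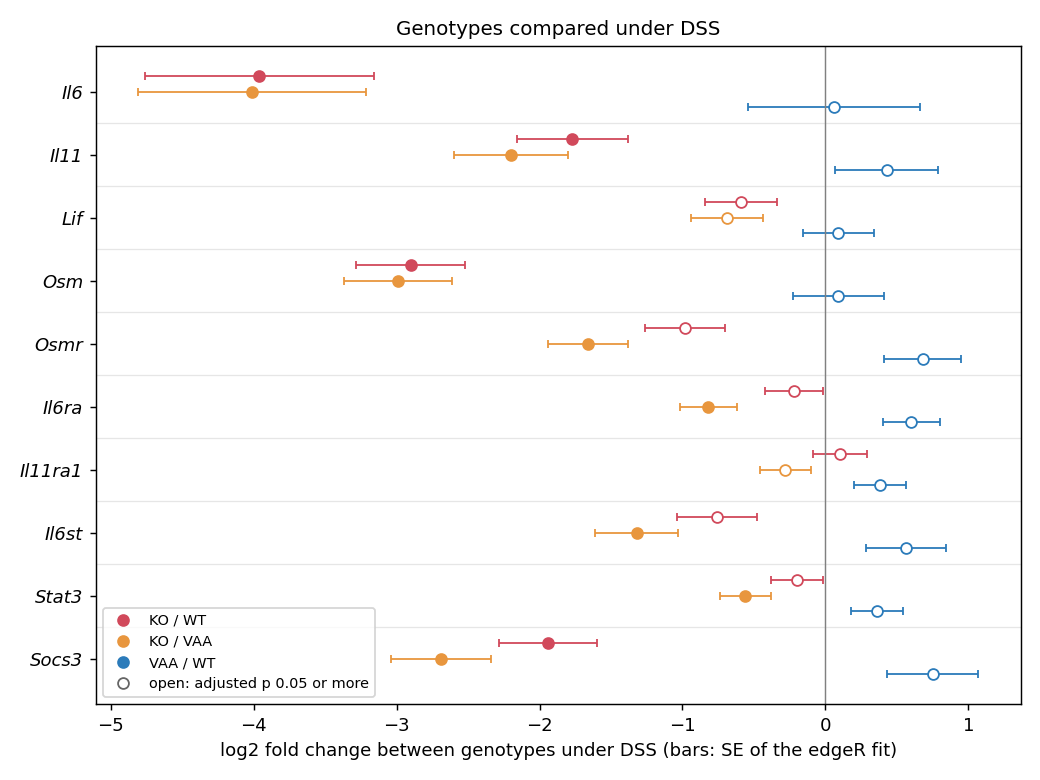
Log2 fold change between genotypes under DSS for each gene, with the standard error of the edgeR fit as bars and open points where the adjusted *P* was 0.05 or more. KO / WT and KO / VAA share the KO DSS libraries, and VAA / WT shares a group with each. *Il6*, *Il11*, *Osm* and *Socs3* lie between -4.01 and -1.77 in both KO comparisons, and every VAA / WT point is open.

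Without DSS, 0 of the 10 genes were called in any pair of genotypes, as were 0 of the 17477 genes, with 2 libraries a group. Unadjusted *P* values under 0.05 were found for 0 of the 10 genes in each of these 3 pairs, and for 352 genes of all tested in KO against WT. The difference between the DSS effects of KO and WT was tested directly as an interaction, and 0 of the 10 genes passed, as did 0 genes in all. Over all genes DESeq2 called 140, a fit of the WT and KO groups alone 31, the fit without VAA DSS replicate 3 18 and limma 9, while 0 of the 10 genes passed in any alternative. The interaction was -3.95 ± 1.79 for *Il6* (adjusted *P* = 0.50), -2.61 ± 0.96 for *Osm* (0.40), -1.76 ± 0.65 for *Il11* (0.39) and -1.40 ± 0.58 for *Socs3* (0.46). These 4 genes had unadjusted *P* of 0.045, 0.018, 0.017 and 0.031, and 1736 genes of all tested had one under 0.05. Leaving out 1 library moved these 4 values to between -7.99 and -3, -3.22 and -1.62, -2.13 and -1.24, and -2.01 and -0.97. A difference between KO and WT in the response to DSS is therefore not shown for any of the 10 genes, while a lower level in KO than in WT under DSS was called for these 4.

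Other genes of the pathway were followed through 5 lists of 52 genes written from general knowledge, of which 49 were tested. In KO against WT DSS colon 8 of these 49 were lower and 0 higher, at a median log2 difference of -0.17, where 2.46% and 3.21% of all genes were called. All 8 belonged to the list of textbook STAT3 targets, where 8 of 20 were lower and 12 did not pass, at a median of -0.78. *Saa3*, a serum amyloid A gene of inflamed tissue, lay at 82.3, 96.5 and 140 CPM in WT DSS from lowest to highest and at 7.76, 8.46 and 8.70 in KO DSS, a difference of -3.68 ± 0.34 (adjusted *P* = 0.00024). *Lcn2*, an iron-sequestering lipocalin, differed by -4.61 ± 0.43 (0.00024), *Reg3b*, an epithelial antimicrobial lectin, by -3.66 ± 0.62 (0.011) and *Timp1*, an inhibitor of matrix metalloproteinases, by -2.04 ± 0.38 (0.011). The others were *Lrg1*, *Hp*, *Icam1* and *Cebpb*, at -1.75, -2.42, -1.49 and -0.99, the last 2 named after their values were seen. Many of these genes are also induced by other inflammatory signals. Leaving out WT DSS replicate 1 or 2 turned the count of 8 into 4 or 2, and leaving out KO DSS replicate 1 or 3 turned it into 3 or 4. The calls on *Saa3* and *Lcn2* stood in every alternative.

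The same STAT3 target list rose with DSS in 12 of 20 members in WT, 14 in VAA and 5 in KO, with 0 called lower in each, beside 14.1%, 10.9% and 5.59% of all genes called higher. The KO count of 5 was 3 without KO DSS replicate 2 or 3, and 8 with DESeq2. It was not recounted with a single untreated library left out. The list medians were 1.44, 1.89 and 0.78, also when genes with nearly no untreated counts were taken at their lower bound. *Lrg1*, a secreted glycoprotein, rose by 7.48 ± 0.62 in WT, 8.51 ± 0.65 in VAA and 5.18 ± 0.57 in KO. *Hp*, the haptoglobin gene, rose by 6.75 ± 0.81, 6.81 ± 0.78 and 4.05 ± 0.81, the KO call being lost without KO untreated replicate 1 or 2 (adjusted *P* of 0.11 and 0.053). *Saa3* rose by 4.82 ± 0.44 in WT and had a log2 fold change of 1.10 ± 0.41 in KO (adjusted *P* = 0.10). *Lcn2* rose by 6.34 ± 0.60 in WT and had 1.15 ± 0.60 in KO (adjusted *P* = 0.25). *Reg3b* had 0 counts in every untreated library, so its rise was at least 172-fold in WT, 188-fold in VAA and 13.7-fold in KO, against a floor of 3 counts over the untreated group. These bounds do not cover the spread between libraries. The KO call on *Reg3b* was lost without KO DSS replicate 1, 2 or 3 (adjusted *P* of 0.081, 0.051 and 0.061) and with sex as a covariate (0.11). It was also lost without KO untreated replicate 1 or 2 (fitted 7.33 and 7.34) and without both male libraries (7.33), which each leave 1 untreated KO library.

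**Figure D4:**
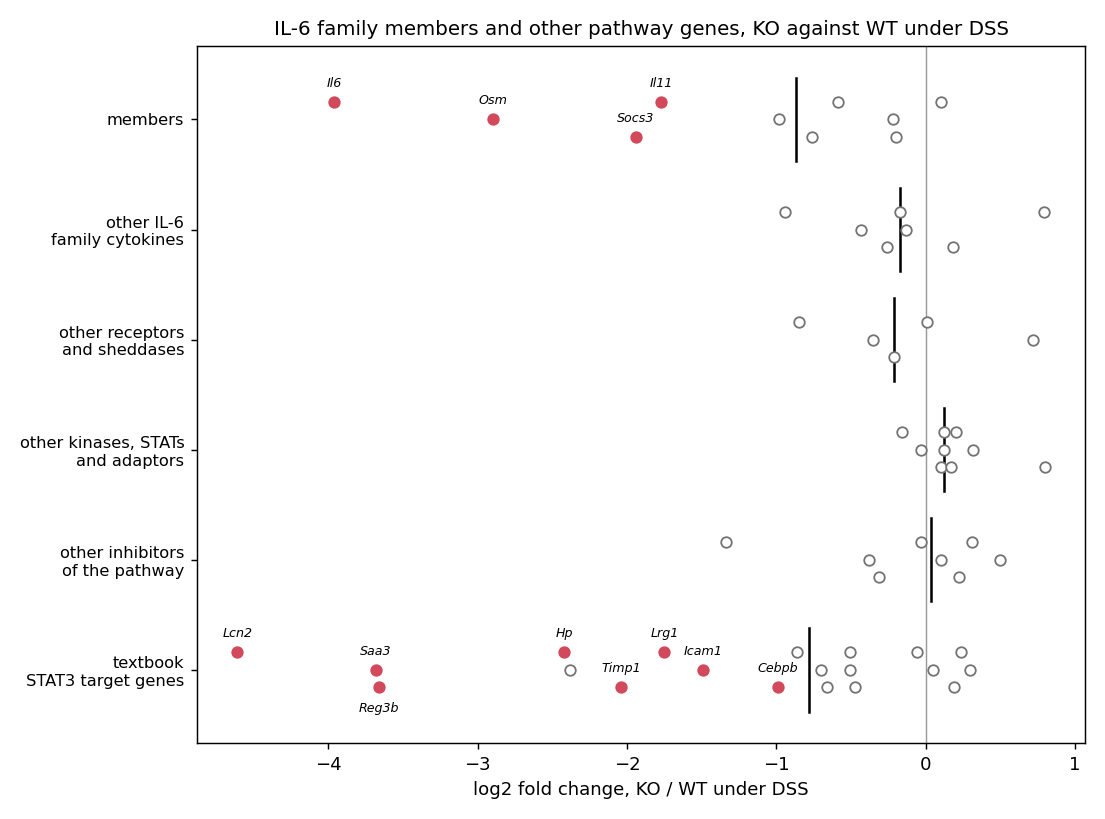
Log2 fold change of KO against WT under DSS for the 10 family genes (top row, members) and for the tested genes of the 5 other lists. Filled and named points were called, open points were not, and vertical bars are list medians. Called genes are found among the 10 genes (4) and the STAT3 targets (8).

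Outside the targets, genes of the pathway moved both ways under DSS. Of 7 other cytokine genes tested, *Clcf1*, whose product acts through gp130 and the leukemia inhibitory factor receptor, rose by 1.69 ± 0.53 in WT and 1.94 ± 0.51 in VAA. *Ctf1*, the cardiotrophin gene, had -1.38 ± 0.31 and -1.46 ± 0.31 there, both called, and neither gene passed in KO. *Ebi3*, a subunit of interleukin-27, was called when averaged over genotypes (1.06 ± 0.38), though not in 12 of its alternatives. *Lifr*, the receptor chain of leukemia inhibitory factor, fell in all 3 genotypes, at -1.67 ± 0.25 in WT, -0.92 ± 0.25 in VAA and -1.81 ± 0.25 in KO. *Adam10*, a protease that sheds membrane receptors, rose by 0.68, 0.56 and 0.59 in the same order. Averaged over genotypes the sheddase gene *Adam17* rose by 0.35 ± 0.10 and the interleukin-27 receptor gene *Il27ra* by 1.03 ± 0.28. By genotype *Il27ra* had 0.72 in WT and 0.57 in VAA, neither called, and 1.79 in KO. The KO value was called, though not in 8 of its alternatives, 7 of them with 1 library left out. Without WT DSS replicate 2 or 3 the WT call on *Clcf1* was lost (adjusted *P* of 0.062 and 0.077). Other calls lost with 1 library left out were those on *Clcf1* in WT (either untreated WT library) and in VAA (either untreated VAA library). They also include *Lifr* in VAA (VAA untreated replicate 1, VAA DSS replicate 1 or 2, 0.052 to 0.15) and *Adam10* in VAA (VAA untreated replicate 1, 0.098) and KO (KO untreated replicate 1, 0.16).

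Of 9 kinase, STAT and adaptor genes, the docking protein gene *Gab1* had -2.00, -1.28 and -1.14 in WT, VAA and KO, all called. The KO call on *Gab1* was lost without any 1 of 10 libraries (adjusted *P* of 0.058 to 0.19) and without both male libraries (0.18), and the VAA call without VAA untreated replicate 1 (0.12) or VAA DSS replicate 1 (0.055). *Tyk2*, a Janus kinase gene, and *Stat5a* rose by 0.30 and 0.27 on average, and the call on *Stat5a* was lost without 1 of the libraries. Of 8 other inhibitors, *Socs1* rose by 3.47 ± 0.60 in WT and 3.78 ± 0.60 in VAA, with 1.75 ± 0.56 in KO (adjusted *P* = 0.064). *Socs2*, a regulator of growth hormone signalling, had -2.15, -1.01 and -1.51 in WT, VAA and KO, all called. The VAA call on *Socs2* was lost without any 1 of 13 libraries (0.051 to 0.22), and the KO call without KO untreated replicate 1 (0.11), KO DSS replicate 2 (0.057) or both male libraries (0.064). The phosphatase gene *Ptpn1* rose in WT and VAA by 0.85 and 1.21. *Pias1*, an inhibitor of STAT proteins, was called at -0.20 on average, though not in 14 of its alternatives. Without VAA DSS replicate 3 the VAA values were -1.58 for *Socs2*, -1.83 for *Gab1* and -1.25 for *Lifr*, all called.

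The genes closest in pattern to the members were found by the root mean square difference between 6 centred group means of log2 CPM, given as a description. For *Socs3* they were *Cxcl5*, a neutrophil-attracting chemokine, at 0.147 log2 units and the acute phase gene *Serpina3n* at 0.335. For *Osm* they were *Reg3g*, an antimicrobial lectin, at 0.123 and *Cxcl5* at 0.284. For *Il6* they were *Cemip*, a hyaluronan-degrading enzyme, at 0.216 and *Csf3*, the granulocyte colony-stimulating factor gene, at 0.241. For *Il11* they were *Alox5ap*, a leukotriene synthesis gene, at 0.234 and *Stx11* at 0.236, and for *Osmr* the NF-kB subunit gene *Rel* at 0.108 and the Fc receptor gene *Fcgr2b* at 0.109. For *Lif* they were *Slfn8* at 0.048 and *Nsf* at 0.061, and for *Stat3* they were *Stk19* at 0.032 and *Smad4* at 0.037. For *Il6ra* they were *Igf1r*, the receptor of insulin-like growth factor, at 0.034 and *Fam195b* at 0.037, and for *Il11ra1* they were *Pkia* at 0.035 and *Sfmbt2* at 0.055. For *Il6st* they were *Abcc5* at 0.026 and the chemokine *Cxcl12* at 0.088. Among the members themselves the closest pairs were *Il6ra* and *Il6st* at 0.240, *Il6st* and *Stat3* at 0.244, *Il6ra* and *Stat3* at 0.275, *Lif* and *Osmr* at 0.312 and *Osm* and *Socs3* at 0.351. VAA DSS replicate 3 held the highest *Il6ra*, *Il6st* and *Stat3* of the series, at 48.3, 439 and 370 CPM. It enters the group means of every gene here, and the distances were not computed without it.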

How the data were processed

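Total RNA of mouse colon was sequenced as 76-base paired ends in 15 libraries. The estimated counts per gene were deposited by the authors as whole numbers, and kallisto 0.46 and the mm10 genome are named in the submitters' processing notes. Neither the labels nor the file headers name an annotation. The log2 CPM table deposited by the authors covers 17531 genes and was recomputed from the counts to within 0.017 using unscaled totals and a prior count of 2; it served as an alternative. Totals of 10.56 to 17.54 M counts set the precision, and counting intervals cover counting error only.

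From the counts, genes were filtered with filterByExpr over the 6 groups, scaled by TMM and fitted over all 15 libraries with edgeR 4.0.16 (quasi-likelihood, R 4.3.3). Calls have a Benjamini-Hochberg adjusted *P* under 0.05 over 17477 genes. CPM uses the scaled totals. The fit was tested on simulated data. Groups and replicate numbers came from the labels. Alternatives were DESeq2 1.42.0 (test, size factors), limma 3.58.1 on the log2 table, no filter, only the groups compared, a replicate block, sex as a covariate, each library left out and, chosen after seeing the data, both male libraries left out.

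Named were *Tert*, the 10 genes, from each list up to 4 called genes of smallest *P* for the averaged DSS effect and up to 4 for KO against WT or an interaction, and 2 genes closest in pattern to each of the 10. Results for 2 of the genes so named are not reported here. The 10 genes and the lists were chosen with earlier results of these data known. Equal replicate numbers gave residual correlations from -0.16 to 0.31 over 33 pairs, with 8 pairs over 0.1. The labels do not say that a number marks a shared litter, batch or day. The main fit did not take the numbers as pairs, and whether they are was not settled.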

Additional observations from a re-analysis of the deposited data

How the results depend on the processing

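Of 1828 values of 80 results on the 10 genes under the alternatives, 1726 kept their direction and their side of the threshold, 61 lost a call, 28 gained one and 13 changed sign. The count of genes called in WT under DSS (7) ran from 5 to 8, that in VAA (7) from 5 to 8, and the averaged count was 8 throughout. In KO the count of 3 was 5 when only the groups compared were fitted, 1 without both male libraries and 0 to 6 with 1 library left out. Between KO and WT under DSS the count of 4 ran from 2 to 6 with 1 library left out. Between KO and VAA the count of 8 was 5 when only the groups compared were fitted, and between VAA and WT it ran from 0 to 1. The cause of these changes was not tested. Sign changes were all of uncalled values. *Il11* in KO had -0.03 with sex as a covariate, -0.08 without both male libraries and -0.08 to 0.81 with 1 library left out. *Il11ra1* between KO and WT had -0.01 with limma, and the interaction of *Stat3* was 0.01 without both male libraries. Between VAA and WT, leaving out 1 library gave -0.38 to 0.89 for *Il6*, -0.06 to 0.72 for *Il11*, -0.11 to 0.35 for *Lif* and -0.17 to 0.28 for *Osm*. Without both male libraries the WT calls on *Il11* (1.75, adjusted *P* = 0.080) and *Lif* (1.21, 0.074) were lost. The labels do not say whether equal replicate numbers pair the libraries. With a replicate block the VAA value of *Il11ra1* (-0.68, adjusted *P* = 0.036), the KO value of *Lif* (1.07, 0.017) and its KO against VAA value (-0.66, 0.046) passed and the KO value of *Osm* (2.11, 0.051) did not. Over all genes, KO against WT under DSS called 991 genes, 1748 with DESeq2, 2766 when only the groups compared were fitted, 531 without both male libraries and 121 (without WT DSS replicate 2) to 2704 (without VAA DSS replicate 3) with 1 library left out. The few untreated counts of *Il6* and *Osm* limit their folds.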
